A study of Mus musculus with 6 samples.

Results

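Necroptosis and pyroptosis are forms of lytic cell death, in which the plasma membrane is opened and the cell contents spill into the tissue. In necroptosis the kinases Ripk1 and Ripk3 assemble a complex that activates the pore-forming pseudokinase Mlkl, and the protease Casp8 restrains this step by cutting the kinases. In pyroptosis a sensor such as Nlrp3 gathers the adaptor Pycard (ASC) and the protease Casp1 into an inflammasome, Casp1 and Casp4 cut gasdermin D (Gsdmd), and the cytokine interleukin 18 (Il18) is matured and released. Both have been studied in the infarcted heart, where injured muscle cells and infiltrating leukocytes carry their components.

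The genes described are these 10, Ripk1, Ripk3, Mlkl, Casp8, Nlrp3, Pycard, Casp1, Casp4, Gsdmd and Il18, out of 26012 genes in the table. The list is given by gene name, and all 10 were measured. The hearts came from male C57BL/6 mice, aged 8 weeks, whose left anterior descending coronary artery was ligated to cause myocardial infarction (MI). At surgery 10 μg of mimic was injected into each heart, either a control mimic or miR-19a/19b mimic (synthetic double-stranded RNA that acts as the microRNA), and ventricular tissue was taken for RNA sequencing at day 4. Each group held 3 hearts, and every heart, controls included, carried an infarct. The comparison asks which transcripts differed between infarcted hearts that received the microRNAs and those that received the control.

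The libraries held 19398196 to 23645308 reads on genes. Values are normalized counts, that is, counts scaled by library size factors. Cardiomyocyte transcripts, which define the labelled tissue, were abundant in all hearts, with summed normalized counts over 10 markers of 578848 to 746435 in control hearts. Libraries of the mimic group stood apart from each other. The cardiomyocyte sum was 1024440 and 919673 in mimic hearts 1 and 2 and 352078 in mimic heart 3, and the sum of 10 leukocyte and macrophage markers was 58035, 68185 and 90497. Transcripts of skeletal muscle summed to 3543 in mimic heart 1 and to 76.1 or less in each of the other hearts. In bulk tissue, fewer cells of a type and less RNA per cell cannot be told apart.

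The sequences of the injected microRNAs are shown because the question is whether the members carry their sites. Both are 23 bases long and share the seed (bases 2 to 8, in capitals) through which a microRNA pairs with a messenger RNA. They differ by U11C, counted from the 5′ end of miR-19a-3p. Mir19a lies at chr14:115044048-115044070 and Mir19b-1 at chr14:115044358-115044380, both on the plus strand, and Mir19b-2 gives the same mature sequence from the minus strand of chrX:52741991-52742013 (RefSeq, GRCm38.p6).
miR-19a-3p: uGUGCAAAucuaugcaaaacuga
miR-19b-3p: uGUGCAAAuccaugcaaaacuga

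No member held a match to this seed. The letters TTTGCACA, TTTGCAC or TTGCACA were absent from the longest annotated 3′ UTR of 10 of 10 members. Of all tested genes with a 3′ UTR, 2907 of 15820 (18.4%) held a match, and of the wider pathway genes described below 23 of 96 (24.0%). The members' 3′ UTRs were short, with a median of 294 bases against 1104 over all tested genes, and they ran from 88 bases in Casp1 to 4365 in Ripk1. The absence of these letters describes the window searched and does not show whether the microRNAs act on a member. Over all tested genes, the median log2 fold change was −0.03 for genes with a match and 0.01 for genes without one.

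Promoter windows of 300 bases, 250 before the start and 50 after it, were at hand for 9 of the 10 members. They were searched on both strands for 3 motifs of inflammatory transcription, the interferon response element (TTTC, any 2 bases, TTTC), the gamma-activated sequence TTCNNNGAA and the NF-kappaB site. The interferon element was found in 1 of 9 members (Ripk1) and in 3.44% of 32851 promoters, the gamma-activated sequence in 1 of 9 (Ripk1) and in 8.30%, and the NF-kappaB site in 2 of 9 (Casp4 and Nlrp3) and in 8.46%. Members were counted by gene over 12 windows, while the percentages count single windows, so these values differ in unit. The windows shown are of these 3 genes, which alone among the members held a match (in capitals). Each of them had another window. That of Casp4 overlapped the printed one and held the same matches, and those of Ripk1 and Nlrp3 held none. Distances are to the start of the printed window's transcript. For Ripk1 it is the other window, chr13:34002113-34002412, that lies at the start of the deposited gene. Casp8 and Il18, counted without a match, had windows away from their deposited starts. These windows were chr1:58802252-58802551 against a start at 58795374, and chr9:50554450-50554749 against a start at 50575273. In Ripk1 the gamma-activated sequence TTCCCGGAA stood 108 and 11 bases before the start, and the interferon element GAAATCGAAA, read on the minus strand and 5 bases before the start, shared letters with the second of them. In Casp4 a pair of overlapping NF-kappaB matches began 93 and 92 bases before the start and another 39 bases before it, and in Nlrp3 a match began 186 bases before it. A match is a string of letters and not a measured binding site. The windows are on the plus strand of GRCm38.p6, at chr13:34002624-34002923 for Ripk1, chr9:5308599-5308898 for Casp4 and chr11:59541319-59541618 for Nlrp3.
Ripk1: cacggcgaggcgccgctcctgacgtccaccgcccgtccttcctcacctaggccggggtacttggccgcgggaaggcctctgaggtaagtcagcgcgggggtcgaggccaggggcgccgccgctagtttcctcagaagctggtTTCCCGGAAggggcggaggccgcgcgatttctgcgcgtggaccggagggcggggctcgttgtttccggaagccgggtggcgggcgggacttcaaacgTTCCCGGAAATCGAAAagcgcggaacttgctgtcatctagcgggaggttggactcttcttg
Casp4: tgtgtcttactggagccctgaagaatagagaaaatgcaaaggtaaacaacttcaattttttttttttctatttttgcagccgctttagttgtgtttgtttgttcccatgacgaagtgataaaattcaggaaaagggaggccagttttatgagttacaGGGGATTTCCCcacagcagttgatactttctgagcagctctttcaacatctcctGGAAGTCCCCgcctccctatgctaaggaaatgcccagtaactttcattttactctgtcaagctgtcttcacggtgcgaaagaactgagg
Nlrp3: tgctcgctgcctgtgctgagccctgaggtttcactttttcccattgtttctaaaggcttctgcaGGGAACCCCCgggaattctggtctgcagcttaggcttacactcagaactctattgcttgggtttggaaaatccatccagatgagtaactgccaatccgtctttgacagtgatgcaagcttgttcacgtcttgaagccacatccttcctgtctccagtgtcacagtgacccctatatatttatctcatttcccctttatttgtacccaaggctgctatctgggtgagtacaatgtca

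All 10 genes were well covered, with between 60 reads (Il18) and 1425 reads (Casp8) in a heart. Levels of different genes were compared as mean normalized counts per kilobase of annotated exon over the 6 hearts. Gsdmd was the most abundant at 533 per kilobase, followed by Casp8 at 394, Ripk3 at 375, Mlkl at 213 and Casp1 at 208. Il18 followed at 133, Casp4 at 90.5, Ripk1 at 71.0, Pycard at 55.7 and Nlrp3 at 43.2. The executioners Gsdmd and Mlkl thus stood above the sensor Nlrp3 and the adaptor Pycard on this scale. Neighbours in the order overlapped in their ranges over the hearts, apart from Ripk3 (lowest 297) above Mlkl (highest 253) and Casp1 (lowest 173) above Il18 (highest 161). The lengths of Il18 (714 bases), Casp4 (3710 bases) and Pycard (3800 bases) are those of the deposited table, and the values per kilobase depend on them.

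None of the 10 genes was called different between the groups. All 10 fitted log2 fold changes (miR-19a/19b mimic minus control mimic) were below 0, from −0.53 for Il18 to −0.04 for Ripk3, with a median of −0.15 against 0.00 over all 21126 genes tested, and the adjusted p was 0.9996 for each (limma with Benjamini-Hochberg adjustment over all genes tested). No gene in the whole table passed this test (0.0% called, smallest adjusted p = 0.396). On reads recovered from the normalized counts, edgeR called 0 genes and DESeq2 called 29, none of them a member. At an unadjusted p under 0.05, 1 member (Il18) was lower and 0 were higher, while 2.63% of all genes were lower and 1.39% were higher (555 and 293 genes, limma). The hearts of the groups overlapped for every member, where 5.3% of all genes were lower and 3.9% higher without overlap.

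**Figure D1:**
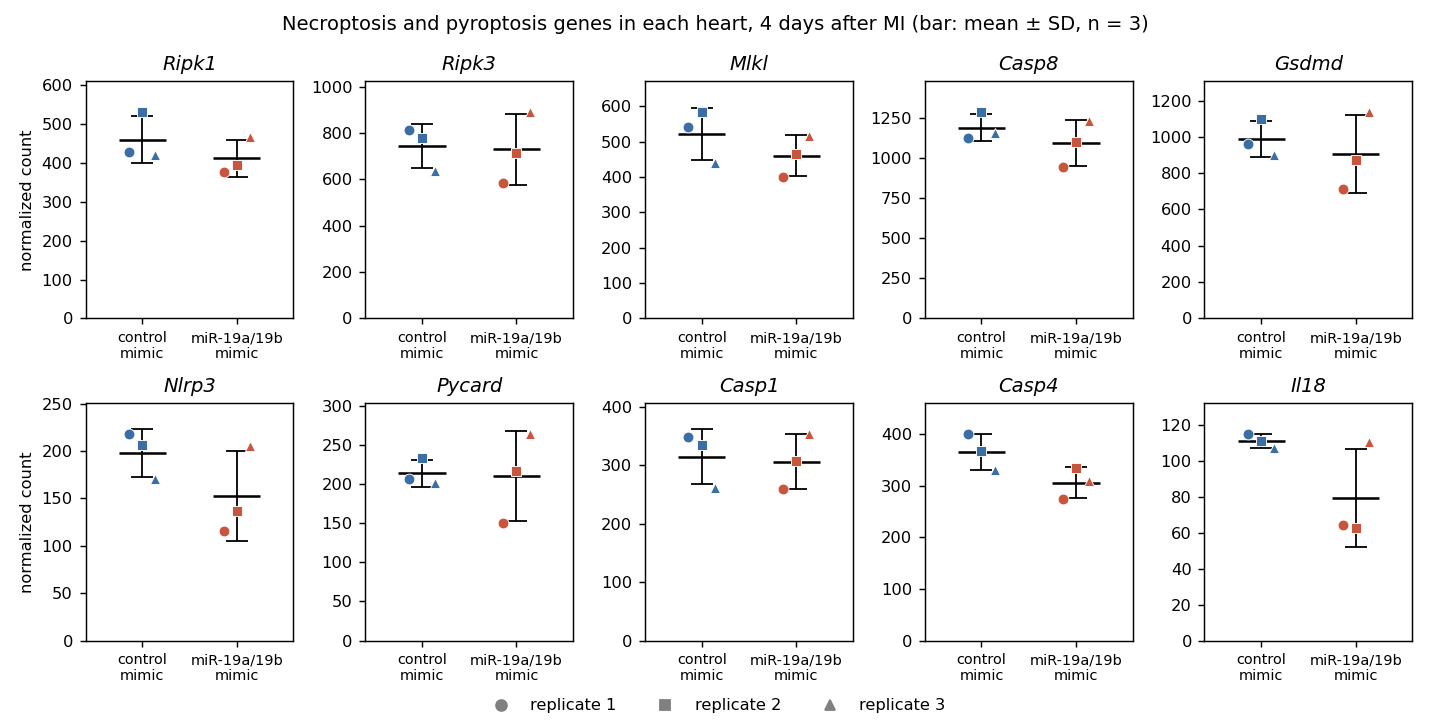
Normalized count (vertical axis, from 0) of each of the 10 genes in each heart, by group, where symbols mark the replicate and bars the mean ± SD of 3 hearts. The groups overlap in all 10 panels, and mimic heart 1 is the lowest of the 6 hearts in 9 of them, with Il18 the exception.

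The necroptosis kinases and their target did not pass the test in either direction. Ripk1, the kinase that links death receptors to the complex (ENSMUSG00000021408, chr13:34002363-34035170, plus strand), had 428, 531 and 421 normalized counts in control hearts 1 to 3 and 375, 395 and 466 in mimic hearts 1 to 3. Mimic hearts 1 and 2 lay below the controls and mimic heart 3 between them. The group means were 460 ± 61.5 and 412 ± 47.6 (SD, n = 3 each), a log2 fold change of −0.16 with a 95% interval of −0.46 to 0.15. Part of the Ripk1 gene, as annotated in GENCODE M21, overlaps Serpinb6a on the other strand, which reached 4716 normalized counts. Whether counting used strand is not given in the sources used here, so reads of the pair may not be separable. Ripk1 also shares 511 bases at 100% identity with the pseudogene Gm17084, which did not exceed 12.97 normalized counts.

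Ripk3, the kinase that phosphorylates Mlkl (ENSMUSG00000022221, chr14:55784996-55788857, minus strand), had 812, 780 and 634 normalized counts in the control hearts and 584, 712 and 890 in the mimic hearts. The mimic group held both the lowest and the highest of the 6 hearts. Means of 742 ± 94.8 and 729 ± 154 gave a log2 fold change of −0.04, with an interval of −0.41 to 0.34.

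Mlkl, whose oligomers permeabilize the membrane (ENSMUSG00000012519, chr8:111311797-111338177, minus strand), had 542, 584 and 440 normalized counts in control hearts and 400, 465 and 515 in mimic hearts. Only mimic heart 1 lay outside the control range. The means were 522 ± 73.8 and 460 ± 57.6, and the log2 fold change was −0.18 (95% interval −0.50 to 0.15). Casp8, the brake on this pathway and the initiator of death-receptor apoptosis (ENSMUSG00000026029, chr1:58795374-58847503, plus strand), had 1125, 1287 and 1158 normalized counts in controls and 946, 1099 and 1232 with the mimic. Mimic hearts 1 and 2 were below all controls and mimic heart 3 was above all but control heart 2. The means of 1190 ± 85.8 and 1092 ± 143 gave a log2 fold change of −0.13 (−0.40 to 0.14). All 4 intervals held 0, and a missed threshold does not show that the groups were equal. Casp8 shares 380 bases at 94.2% identity with Gm20257, which did not exceed 41.5 normalized counts.

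Among the pyroptosis genes, the sensor and the cytokine had the largest fitted differences. Nlrp3, which responds to potassium loss and other signs of cell damage (ENSMUSG00000032691, chr11:59541568-59566956, plus strand), had 218, 205.9 and 170 normalized counts in control hearts and 115, 137 and 205.7 in mimic hearts. Mimic hearts 1 and 2 lay below every control, and mimic heart 3 lay inside the control range. The means were 198 ± 24.8 and 153 ± 47.3, and the log2 fold change was −0.41 with an interval of −0.90 to 0.09 (limma, unadjusted p = 0.094).

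Il18, the proinflammatory cytokine that Casp1 matures (ENSMUSG00000039217, chr9:50575273-50581837, plus strand), had 115, 111.3 and 107 normalized counts in the control hearts. The mimic hearts had 64.6, 62.9 and 110.6. Control hearts were close together, mimic hearts 1 and 2 were far below them, and mimic heart 3 was within their range. The means were 111 ± 3.75 and 79.4 ± 27.1, and the log2 fold change of −0.53 had a 95% interval of −1.05 to −0.0083 (limma, unadjusted p = 0.0472 and adjusted p = 0.9996). This unadjusted call depended on the tool and on which hearts were used. On recovered reads the unadjusted p was 0.0772 by edgeR's quasi-likelihood test and 0.0807 by DESeq2, both model fits across all genes. Without mimic heart 3 the log2 fold change was −0.79 (limma, adjusted p = 0.0411, against 0.987 to 0.9999 in the other fits), and when any one of the other 5 hearts was left out instead the unadjusted limma p was between 0.0846 and 0.159. In GENCODE M21, Il18 begins at 50554827 instead of the deposited 50575273. That longer span overlaps Bco2 and Tex12 on the other strand, which reached at most 63.1 and 6.83 normalized counts. Overlap with the deposited span was not checked.

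Pycard, the adaptor between sensor and protease (ENSMUSG00000030793, chr7:127989708-127993867, minus strand), had 207, 233 and 201 normalized counts in controls and 150, 217 and 264 in mimic hearts. As with Ripk3, the lowest and the highest heart both belonged to the mimic group, and the log2 fold change was −0.06 (95% interval −0.52 to 0.40). Its group means were 214 ± 17.3 and 210 ± 57.3. It overlaps Gm45205 on the other strand, with 485 bases at 100% identity, which did not exceed 4.32 normalized counts. Casp1, the inflammasome protease (ENSMUSG00000025888, chr9:5298517-5307265, plus strand), had 348, 336 and 262 normalized counts in controls and 259, 307 and 354 with the mimic. Its group means of 315 ± 46.8 and 307 ± 47.1 were nearly the same, with a log2 fold change of −0.04 (−0.40 to 0.32).

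Casp4, the mouse caspase also called caspase-11, which senses bacterial lipopolysaccharide inside the cell (ENSMUSG00000033538, chr9:5308828-5336783, plus strand), had 400, 367 and 331 normalized counts in control hearts and 274, 334 and 309 in mimic hearts. It was the member for which mimic heart 3 was not the highest of its group, and mimic hearts 1 and 3 were below every control. The means were 366 ± 34.7 and 306 ± 29.9, and the log2 fold change was −0.26 with an interval of −0.55 to 0.03 (limma, unadjusted p = 0.0725). Gsdmd, which forms the pores of pyroptosis (ENSMUSG00000022575, chr15:75862339-75867404, plus strand), had 963, 1097 and 902 normalized counts in controls and 713, 872 and 1137 with the mimic. Here too the mimic hearts spanned the whole control range, with means of 987 ± 99.6 and 907 ± 214 and a log2 fold change of −0.14 (−0.52 to 0.24).

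The members shared an order among the mimic hearts. Mimic heart 1 was the lowest of the 6 hearts for 9 of 10 members, against 17.3% of all tested genes, and mimic heart 3 was the highest mimic heart for 9 of 10, against 39.7%. The order of mimic heart 1 below 2 below 3 was found for 8 of 10 members and 21.3% of all genes, and mimic heart 3 was the highest of all 6 hearts for 4 members (Ripk3, Casp1, Gsdmd and Pycard) and 22.7% of all genes. From mimic heart 1 to mimic heart 3 the members' normalized counts differed by 1.12-fold (Casp4) to 1.79-fold (Nlrp3), while the highest and lowest control hearts differed by 1.07-fold (Il18) to 1.33-fold (Casp1). The summed normalized count of the 10 members was 5157, 5532 and 4626 in control hearts and 3882, 4601 and 5482 in mimic hearts. Across the 6 hearts the members followed one another, with a Pearson r above 0 for 45 of 45 pairs, a median of 0.777 and a range from 0.448 (Casp4 with Pycard) to 0.972 (Ripk3 with Casp1), as a description of hearts that share library and tissue composition.

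Markers of myeloid cells followed this order and those of T and NK cells did not. Relative to the control mean, the mean log2 level of the 10 members was −0.45, −0.22 and 0.08 in mimic hearts 1, 2 and 3, and that of 10 leukocyte and macrophage markers was −0.44, −0.20 and 0.16. For 8 neutrophil markers the values were −1.55, −0.23 and 0.21, with Ly6g, a defining marker, at no more than 3.09 normalized counts in any heart. For 6 monocyte markers they were −1.01, −0.60 and −0.43, below the control mean in every mimic heart, though F13a1 alone had a log2 fold change of 0.16. For 8 T and NK cell markers they were −0.65, −0.52 and −0.77, lowest in mimic heart 3, and for 5 B cell markers −0.50, −0.47 and 0.46. Cardiomyocyte markers went the other way, at 0.63, 0.53 and −0.89. The part of leukocyte or muscle content in the members' values was not tested.

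**Figure D2:**
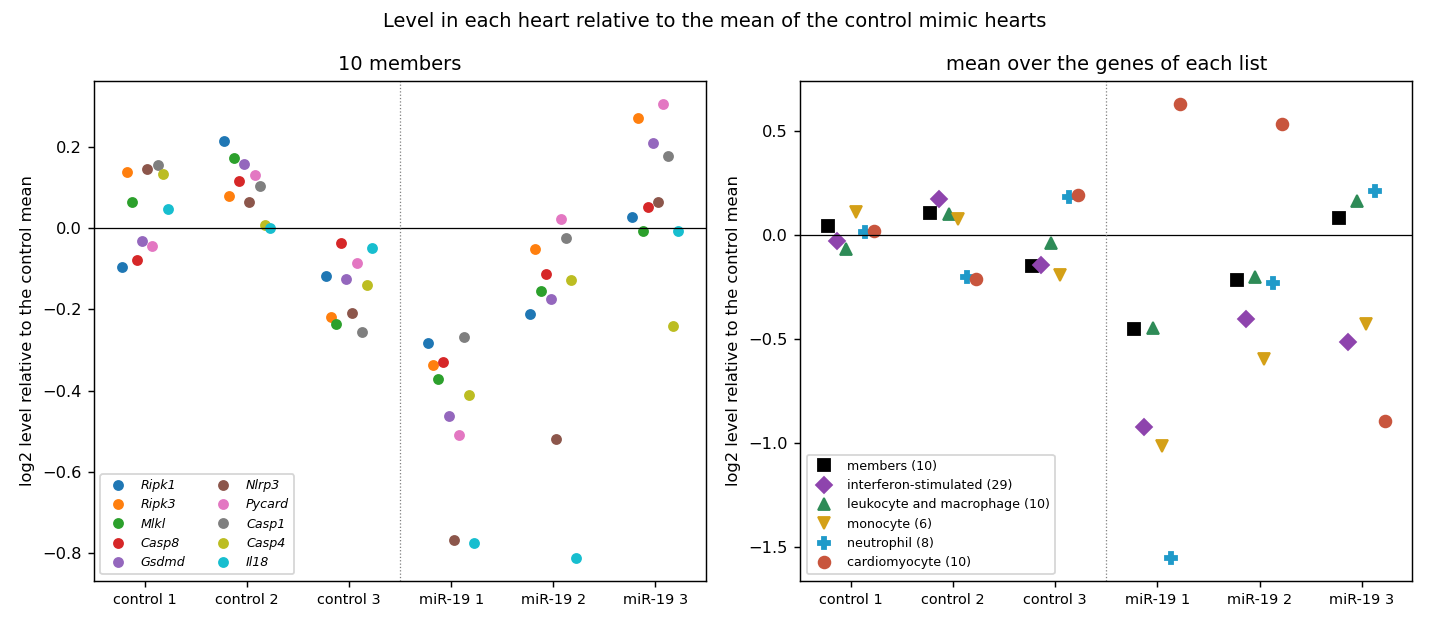
Log2 level in each heart relative to the mean of the 3 control mimic hearts (vertical axis), for each of the 10 members (left) and as the mean over the genes of 6 lists (right), where miR-19 1 to 3 are the mimic hearts. The members and the leukocyte and macrophage markers go from −0.45 and −0.44 in mimic heart 1 to 0.08 and 0.16 in mimic heart 3, while the cardiomyocyte markers go from 0.63 to −0.89.

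The result was recomputed without the libraries that stood apart. Mimic heart 3 was the highest mimic heart for 9 of 10 members, so leaving it out had to lower their fold changes. Mimic heart 1 was the lowest heart for 9 of 10, so leaving it out had to raise them. Without mimic heart 3, which had the fewest cardiomyocyte transcripts, 3 members were lower at an unadjusted p under 0.05 (limma), namely Il18, Nlrp3 (log2 fold change −0.64, adjusted p = 0.0652) and Gsdmd (−0.32, adjusted p = 0.225), and Il18 alone was called. In that fit 1289 of 21202 genes were lower and 1778 higher at the same unadjusted threshold, and 164 were called lower and 383 higher, in place of 0. Without mimic heart 1, which held the skeletal muscle transcripts, 0 members were lower at that threshold and 6 of 10 fold changes were below 0. Of all genes in that fit, 515 of 21101 were lower at the same threshold. In that fit Ripk3 stood at 0.11, Casp1 at 0.08, Pycard at 0.16 and Gsdmd at 0.02 on the log2 scale.

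The wider machinery around the members was read from 5 lists of 104 genes, of which 98 were tested. At an unadjusted p under 0.05 (limma), 10 were lower and 2 were higher in mimic hearts, 72 were below 0, and the median log2 fold change was −0.09. The share that was lower was 10.2%, against 2.63% of all genes. None passed the adjusted test (smallest adjusted p = 0.791).

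In the death receptor and necrosome list, 1 of 30 genes was lower (3.33%, close to the 2.63% of all genes) and 1 was higher. Zbp1, a sensor of Z-form nucleic acids that engages Ripk3 directly, had 832, 945 and 742 normalized counts in control hearts and 277, 554 and 486 in mimic hearts. Every mimic heart was below every control, with a log2 fold change of −0.99 ± 0.24 (SE, adjusted p = 0.839 by limma). Zbp1 is also an interferon-induced gene. Fas, a death receptor, had 351, 338 and 316 normalized counts in controls and 398, 440 and 369 with the mimic, a log2 fold change of 0.26 (limma, unadjusted p = 0.0493). Of the other genes, Cyld, a deubiquitinase that acts on Ripk1, stood at −0.24, the adaptor Ticam1 at 0.20 and the kinase-complex subunit Ikbkg at 0.13, each with groups that did not overlap and an unadjusted p above the threshold. These 3 were named after their values were seen. The ligand Tnf stood at −0.23 with a wide interval (−1.32 to 0.85). Nearer to 0 were the TNF receptor Tnfrsf1a (−0.06), the adaptor Fadd (−0.01), the Casp8 inhibitor Cflar (−0.02) and the ubiquitin-editing enzyme Tnfaip3 (−0.10).

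Of 14 tested genes for gasdermins and membrane rupture, 0 passed the unadjusted threshold in either direction (limma), and the median log2 fold change was −0.02. Ninj1, which breaks the membrane in the last step of lytic death, stood at 0.20 (95% interval −0.06 to 0.47), and gasdermin E, listed as Dfna5, at −0.25 (−0.61 to 0.12). Their directions were opposite and both intervals held 0.

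Inflammasome sensors and activators had the lowest median of the lists. Of 25 genes 4 were lower (16%, against 2.63% of all genes) and 0 higher at an unadjusted p under 0.05, 22 were below 0, and the median log2 fold change was −0.32. The genes that were lower were the guanylate-binding proteins Gbp3 (−0.54) and Gbp7 (−0.49, adjusted p = 0.791 by limma), the immunity-related GTPase Gm12250, known as Irgb10 (−0.83), and the flagellin and secretion-needle sensor Naip2 (−0.45). The guanylate-binding proteins and Gm12250 open vacuoles and bacterial membranes and are interferon-induced. Gbp7 had 754, 810 and 790 normalized counts in controls and 502, 611 and 569 in mimic hearts, so its groups did not overlap, while for Naip2 mimic heart 3 (465) lay above control heart 3 (435). Aim2, the DNA sensor, stood at −0.33 and Nlrc4, the partner of the Naip proteins, at −0.33, with intervals that held 0. Nek7, the ATP-gated channel P2rx7 and Txnip, which are among the factors that act on Nlrp3, stood closer to 0, at −0.11, −0.11 and 0.14. Other such factors may be in the list, so these values do not describe them as a class.

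In the interleukin 1 family, 2 of 12 tested genes were lower at that threshold (16.7%, against 2.63% of all genes) and 0 were higher. Il18bp, the secreted protein that binds and blocks interleukin 18, had 338, 393 and 284 normalized counts in controls and 246, 277 and 241 with the mimic, a log2 fold change of −0.40. Il1rap, the shared receptor chain for interleukin 1 and interleukin 33, stood at −0.35. Il18 and its blocker Il18bp were thus both lower at the unadjusted threshold, and neither passed the adjusted test. Il1b ranged from 70.3 to 213 normalized counts in controls and from 38.7 to 138 in mimic hearts, too wide a spread for its log2 fold change of −0.47 (−1.66 to 0.72) to be told from 0. Its natural antagonist Il1rn stood at −0.33 (−0.94 to 0.27).

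Of 17 other caspases, scaffolds and inhibitors, 3 were lower (17.6%, against 2.63% of all genes) and 1 was higher at an unadjusted p under 0.05. Casp9, the initiator caspase of mitochondrial apoptosis, stood at −0.11 (95% interval −0.46 to 0.25) and Casp12 at −0.07 (−0.35 to 0.21). The lower genes included Serpinb1a, which blocks neutrophil proteases (−0.44), and Serpinb9, which blocks granzyme B (−0.29). Card14, a scaffold of epithelial cells, was higher at 0.75 but on 11.7 to 22.6 normalized counts.

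**Figure D3:**
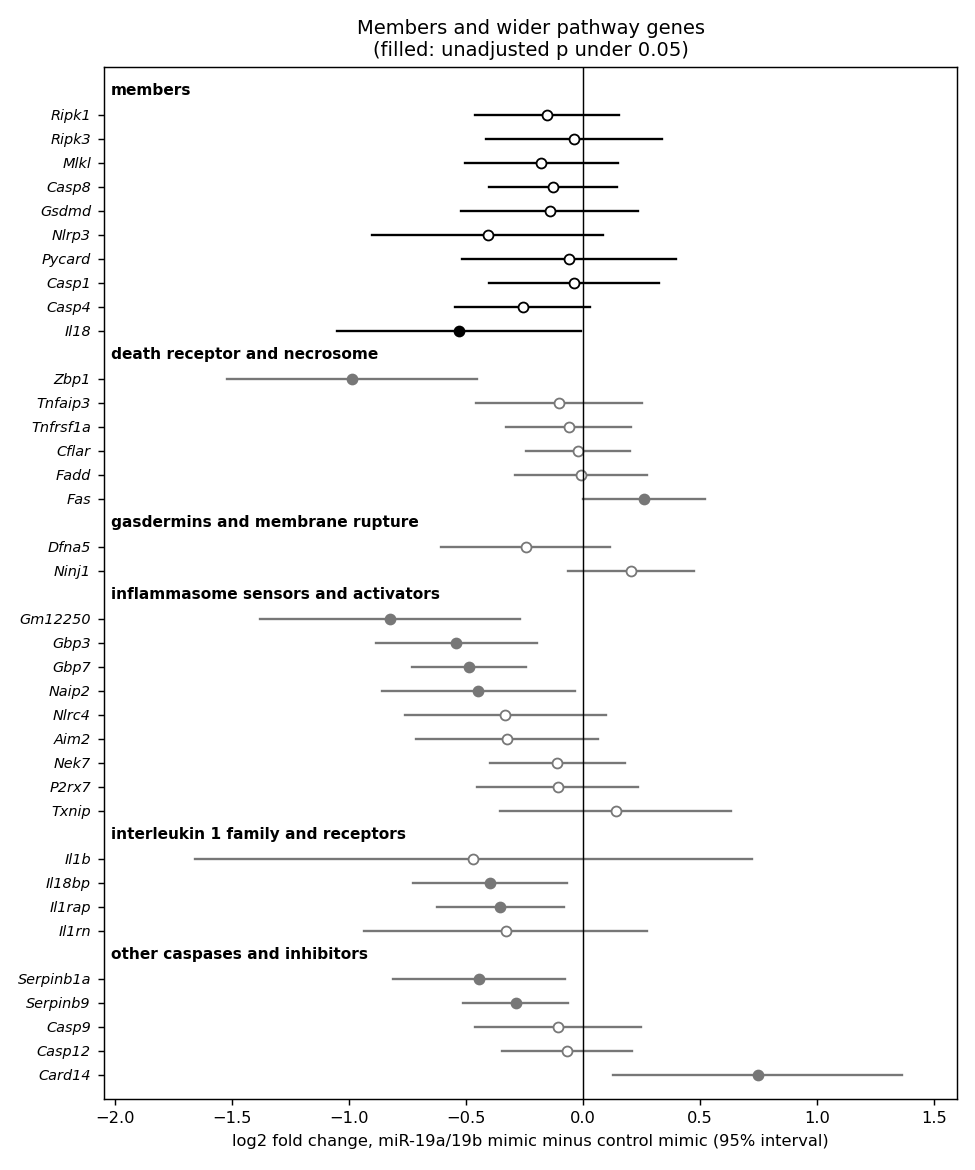
Log2 fold change, miR-19a/19b mimic minus control mimic (horizontal axis), with 95% intervals for the members (black) and for wider pathway genes (grey), where filled points have an unadjusted limma p under 0.05. Among the members Il18 is the filled point, at −0.53, and among the others shown Zbp1 lies farthest from 0, at −0.99.

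Interferon-stimulated genes were set beside the members because several members are known to be induced by interferon. Of 29 such genes, 25 were lower at an unadjusted p under 0.05 (limma) and 0 were higher, against 2.63% and 1.39% of all genes. For 24 of the 29 the groups did not overlap, where 5.3% of all genes were lower without overlap. The median log2 fold change was −0.62, against −0.15 for the members. The list is part of an interferon signal already seen in these hearts and is not independent evidence of it. Relative to the control mean, its mean log2 level was −0.93, −0.41 and −0.51 in mimic hearts 1, 2 and 3. Mimic heart 3 was therefore below the controls for this list, while the members stood at 0.08 in that heart. Fold changes in the interferon list ran from −1.05 (Ifit1) to −0.13 (Irf1). That wide range also held most members, from Il18 at −0.53 through Nlrp3, Casp4, Mlkl, Ripk1 and Gsdmd to Casp8 at −0.13. Pycard (−0.06), Casp1 (−0.04) and Ripk3 (−0.04) lay above it.

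**Figure D4:**
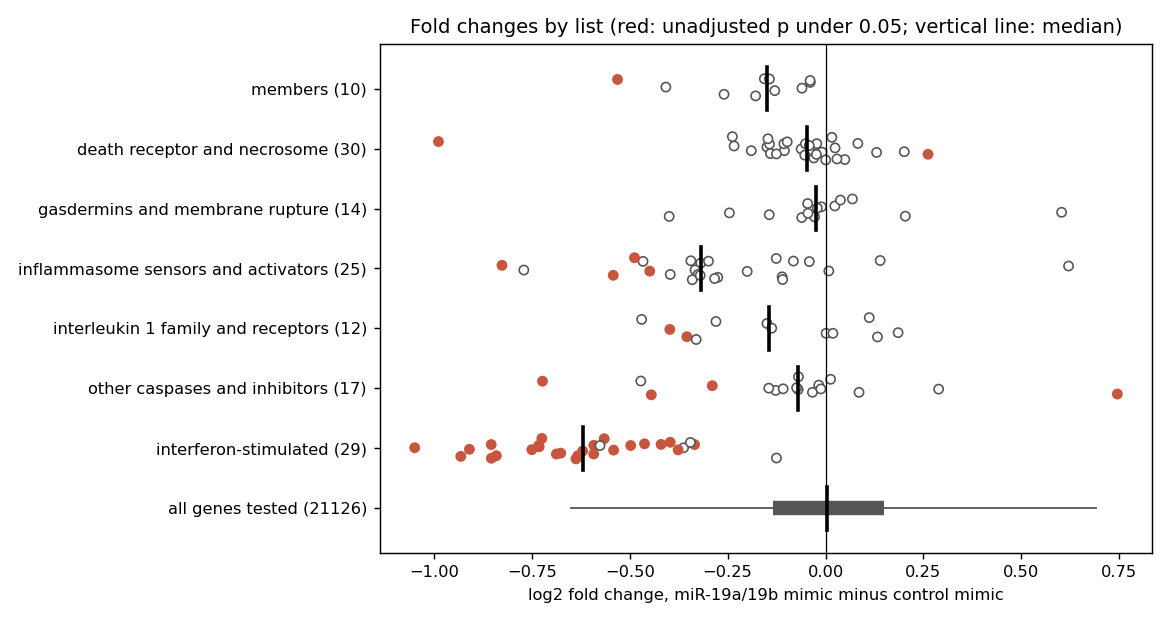
Log2 fold change of each gene (horizontal axis) by list, with the number tested in parentheses, red points for an unadjusted limma p under 0.05 and vertical bars for medians, and for all genes a thick bar from the 25th to the 75th percentile and a thin line from the 5th to the 95th. The medians are −0.15 for the members, −0.32 for inflammasome sensors and activators and −0.62 for interferon-stimulated genes.

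The genes whose profile over the 6 hearts was most like that of each member were ranked by Pearson r among 11609 genes with a mean of at least 100 normalized counts. For Gsdmd the nearest was Tmem173, the adaptor STING (r = 0.997). For Nlrp3 it was C430002N11Rik (0.993), followed by Birc3, a ubiquitin ligase of the death receptor complex (0.990). For Casp4 the nearest were Gbp4 (0.986) and Cd274 (0.977), both interferon-induced, followed by Yipf6 (0.972). The nearest gene was Atp13a1 for Ripk3 (0.999), Olfm1 for Ripk1 (0.997), Shq1 for Mlkl (0.987), Mob1a for Casp8 (0.997), Cnrip1 for Casp1 (0.995), Rdh11 for Pycard (0.993) and Frg1 for Il18 (0.999). With 6 points and this many genes compared, values this high describe likeness in these hearts and no more.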

How the data were processed

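Ventricular RNA of 6 infarcted hearts was sequenced, and libraries were grouped by their labels as control mimic (3) or miR-19a/19b mimic (3). The submitters' processing notes name STAR 2.5.1b, HTSeq 0.6.0, DESeq2 1.10.1 and build mm9, while the paper names edgeR for the comparison. The deposited signal is a normalized count, made by the authors as the HTSeq count divided by a size factor (0.905 to 1.16). Whole reads were recovered for 100% of values (within 0.1 read). Coordinates are those deposited. They match GRCm38 (GENCODE M21) in chromosome for 99.94% and in start and end for 82.68% of 25884 genes found, so they were read as that build and not as mm9. The log2 fold changes and p-values that the authors deposited for their own comparison were not used.

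limma 3.58.1 (R 4.3.3), with a trended prior, was fitted to log2(normalized count + 1) for the 21126 genes with a mean of at least 1, two-sided, with Benjamini-Hochberg adjustment, and calls were made where the adjusted p was under 0.05. Fold changes are on this scale, which understates those of low genes. The fit was tested on simulated data with 200 of 20603 genes changed 2-fold, of which 73.5% were called, as were 12 unchanged genes. The simulated counts varied independently between genes, without the shared differences seen among these hearts. The share called therefore does not carry over to the real comparison. Alternatives were edgeR 4.0.16 and DESeq2 1.42.0 on recovered reads, limma-voom, other filters, 0.1 as the pseudocount, a block for replicate number, and fits without each heart in turn. The hearts are separate samples, and p-values measure only the spread between them. Genes of the wider lists were named if their unadjusted p was under 0.05 or if they belonged to a short list of central genes, named whatever their values, apart from items that are not reported here. The members and lists were chosen with earlier results of these data known. Mature microRNAs and promoters are from RefSeq (GRCm38.p6).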

Additional observations from a re-analysis of the deposited data

How the results depend on the processing

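With all 6 hearts, all 10 members stayed below 0 under the 9 alternatives and none was called at an adjusted p. The single lower member at an unadjusted p under 0.05 (Il18) became 0 in 6 of them, with an Il18 p of 0.0772 by edgeR with TMM scaling, 0.0732 by edgeR with RLE scaling, 0.0807 by DESeq2, 0.0563 by limma-voom, 0.053 with at least 10 reads in every heart and 0.0634 with the replicate block. DESeq2 called 29 genes overall in place of 0. The 2 wider pathway genes that were higher became 0 with DESeq2, 1 with limma-voom and 0 with the replicate block. Same-numbered hearts did not deviate together (r of −0.0085, −0.0213 and −0.115, against −0.103 to 0.116 for the other pairs). With 3 hearts per group this cannot show whether the numbers pair them. The replicate block left 641 genes in place of 848 at an unadjusted p under 0.05. With 1 heart left out, 369 to 1289 of all tested genes were lower and 208 to 1778 higher at an unadjusted p under 0.05 (limma). Leaving out 1 heart gave 0 to 3 lower members, 0 to 547 genes called, 6 to 24 wider genes lower and 0 to 5 higher, the highest of each without mimic heart 3. It also turned the direction of 4 members, whose log2 fold changes ran from −0.19 to 0.11 (Ripk3), −0.17 to 0.076 (Casp1), −0.24 to 0.16 (Pycard) and −0.32 to 0.017 (Gsdmd). The cause was not tested. The members had at least 60 reads in a heart, and the part of depth was not tested.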
